A study of Mus musculus with 6 samples.

Results

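The 37 genes carried by mouse mitochondrial DNA were described in RNA sequencing of haematopoietic stem cells (HSCs), which sit in the bone marrow and give rise to all blood lineages. They are the rows of the count files whose Ensembl identifier maps to a symbol beginning with mt-, 37 of 49585 genes: 13 protein-coding, 2 rRNA and 22 tRNA genes. The 6 libraries came from untreated C57BL/6 mice aged 8 to 16 weeks, 10 mice pooled for each. The cells shared one sort, for Kit, Sca-1, CD150 and CD201 and against lineage markers, CD48 and CD34, and were then parted by surface CD38, an enzyme that consumes NAD. There were 3 CD38-positive and 3 CD38-negative libraries, which the design text joins into 3 pairs. Whether paired libraries share their animals is not stated there. The p-values of tests that keep the pairs measure how the differences within pairs of pools spread over the 3 pairs. Those of tests without the pairs measure the spread between the pools. Replicate numbers below are pair numbers.

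Mitochondrial DNA is a small circle inside the organelle, present in many copies per cell. Both of its strands are transcribed into long precursors that run through many genes. The tRNAs lie between the other genes and are cut out, which frees the mRNAs and rRNAs. All 13 proteins are subunits of the respiratory chain complexes I, III and IV and of the ATP synthase, complex V, and each of these complexes also needs subunits encoded in the nucleus. HSCs are known for leaning on glycolysis while quiescent and for holding their mitochondria at low activity.

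The totals were between 16771180 and 18558610 reads per library. All 12 HSC markers had reads in every library, with 0.0725% to 0.180% of reads in CD38-positive and 0.104% to 0.246% in CD38-negative libraries. The lineage-negative sort should remove mature blood cells, yet all 14 granulocyte markers had reads in every library and took 7.50% to 14.8% and 8.80% to 12.6% of reads. The 9 erythroid markers took 0.273% to 0.824% and 0.360% to 0.740%, and the 9 B and plasma cell markers 0.0332% to 0.0925% and 0.127% to 0.339%. All 6 monocyte and macrophage markers and all 5 megakaryocyte markers had reads in every library, at most 0.0245% and 0.0214% of reads. Of the 5 T and NK cell and the 4 endothelial markers, 3 each had reads in every library, at most 0.0286% and 0.0108% of reads in sum, while Cd3e was at 0 in 4 libraries and Cdh5 in 1.

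Not every mitochondrial gene could be read from these files. Of the 13 protein-coding genes, 7 carried practically all the reads: mt-Nd1, mt-Nd2, mt-Nd4, mt-Nd5 and mt-Nd6 of complex I, mt-Cytb of complex III and mt-Co1 of complex IV. The other 6 were mt-Co2 and mt-Co3 of complex IV, mt-Atp6 and mt-Atp8 of complex V, and mt-Nd3 and mt-Nd4l of complex I. They had 9 reads between them over the 6 libraries, of which 7 fell on mt-Atp6, and mt-Atp8, mt-Nd3 and mt-Nd4l had 0 in every library. A count of 0 allows up to 3 reads by counting error alone, or 0.165 to 0.183 CPM (reads scaled to a common library total, here with TMM factors throughout). Their neighbour mt-Nd4 had between 14135 and 83481 reads per library. Reads were counted per whole gene, so whether the gap runs on into a neighbouring gene cannot be told.

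The 6 genes stand side by side, and the 9 mitochondrial genes of their stretch, 3 tRNAs included, had 18 reads in all. On the mitochondrial map of GRCm38 they run, with tRNA genes between them, from the start of mt-Co2 to the end of mt-Nd4l, chrM:7013-10173, 3161 bases on the plus strand. That stretch lies inside one that the annotation repeats on chromosome 1. Transcripts of 7 unprocessed pseudogenes at chr1:24611535-24616197, on the minus strand, matched chrM:6390-11042, 5 of them without a mismatch and the other 2 with 1 mismatch each. They keep the mitochondrial order, and their spacing on chromosome 1 equals that on the mitochondrial map to within 1 base. Gm28661 matched mt-Co2 over 681 bases, Gm10925 matched mt-Atp6 over 678, Gm28437 matched mt-Co3 over 783, Gm10222 matched mt-Nd4l over 294 and Gm28439 the first 876 bases of mt-Nd4, all at 100% identity.

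**Figure D1:**
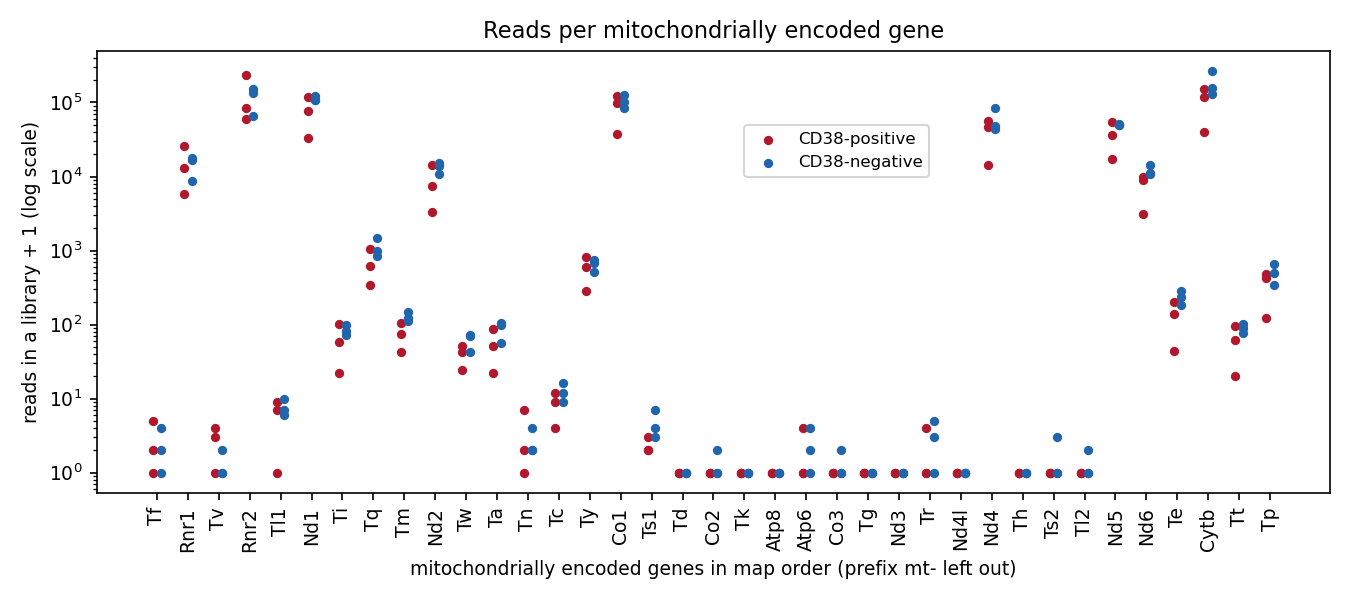
Reads per library for the 37 mitochondrially encoded genes in map order, as reads plus 1 on a log scale; each point is 1 library, red for CD38-positive and blue for CD38-negative. The genes from mt-Co2 to mt-Nd4l lie at or near 0 in all 6 libraries, between mt-Co1 and mt-Nd4, which have at least 37282 and 14135 reads in each.

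The share of a gene's sequence that is repeated in the nucleus followed the same line. Cut into all possible 50-base pieces, mt-Co2 had 100% of them in nuclear transcripts, mt-Co3 99.9%, mt-Atp6 99.5%, mt-Nd4l 98.8% and mt-Nd3 98.0%. Both neighbours were repeated in part, mt-Nd4 at 62.2% and mt-Co1 at 51.1%. The other protein-coding and rRNA genes with reads were between 0% (mt-Nd1, mt-Nd6, mt-Cytb and mt-Rnr1) and 8.19% (mt-Nd2). HTSeq, named in the submitters' processing notes, by default leaves out a read that aligns to several places. The settings used are not given in the sources used here, and whether read placement accounts for the gap was not tested.

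The exception is mt-Atp8, at 0% by this measure, which covers annotated nuclear transcripts only. Sequence between annotated genes was not searched. The annotation names no gene between Gm28661 and Gm10925, where a copy of it would lie. It is shown whole for that reason, from GENCODE M21 (chrM:7766-7969, plus strand, 204 bases), with the 43 bases that also belong to the start of mt-Atp6 in capitals. A read over those capitals belongs to both genes, and the first base of the capitals is the start of the mt-Atp6 reading frame.
mt-Atp8: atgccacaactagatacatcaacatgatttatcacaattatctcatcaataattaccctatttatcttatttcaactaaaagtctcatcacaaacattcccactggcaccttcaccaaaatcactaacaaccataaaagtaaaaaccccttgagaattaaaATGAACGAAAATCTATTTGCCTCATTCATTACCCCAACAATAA

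The copy of mt-Nd3 was the one nuclear copy with many reads. For Gm28438 (chr1:24612775-24613119), CD38-positive replicates 1, 2 and 3 held 209, 84 and 90 reads and their CD38-negative partners 199, 182 and 121, while mt-Nd3 itself had 0 in all 6. The other 6 copies on chromosome 1 had at most 16 reads in any library. Gm28438 differs from mt-Nd3 by 1 base in 345, T9461C, counted on the mitochondrial map with the mitochondrial base first, which is base 3 of mt-Nd3. Both starts are shown 5′ to 3′, at chrM:9459-9491 and chr1:24613087-24613119 (minus strand), with that base in capitals.
mt-Nd3: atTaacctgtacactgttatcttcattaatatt
Gm28438: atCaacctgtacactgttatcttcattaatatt

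C57BL/6 sublines are known to differ in their mt-Nd3 sequence, and the labels name no subline. Whether the base that separates mt-Nd3 from Gm28438 has a part in these reads was not tested. Farther from the mitochondrial sequence, Gm13340 on chromosome 2, a copy of mt-Co1 at 97.6% identity, had 12 to 57 reads per library and Gm13341, a copy of mt-Co2 at 95.9%, had 3 to 29. On chromosome 1, Gm29216, a copy of the end of mt-Co1, had 45 reads over the 6 libraries and Gm10925 had 41. Over all 16 nuclear copies found in the files the reads came to at most 0.0477% of the mitochondrial reads of a library.

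Mitochondrially encoded genes took 4.28%, 1.44% and 2.69% of all reads in the 3 CD38-positive libraries, in order of replicate, and 3.68%, 3.74% and 4.43% in their CD38-negative partners. CD38-positive replicate 2 was the lowest library and CD38-positive replicate 1 the second from the top. The groups overlap, because pair 1 had more in its CD38-positive library. In such bulk libraries, fewer cells of a type and less RNA per cell cannot be told apart. The mean difference of the 3 pairs was -0.63 on the log2 scale (SD 0.80, n = 3). The exact permutation p over swaps within pairs, two-sided as are all below, was 0.5, where 0.25 is the smallest that 3 pairs allow. Adjusted over the 4 shares of all mitochondrial genes and of their protein-coding, rRNA and tRNA classes, it was 0.667. Without pair 2 the difference was -0.25, and without that 1 library and without the block it was -0.21 (exact permutation p = 0.6), a check chosen after the values were seen. The 95% Wilson interval of a library's share had a half-width of at most 0.00978 percentage points, for counting error only.

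CD38-positive replicate 2 stood apart in other sums as well. It had the lowest granulocyte share, at 7.50%, the lowest B and plasma cell share, at 0.0332%, and the lowest share of the nuclear RNAs Malat1 and Neat1, at 0.0321% against 0.0721% to 0.130% in the other 5 libraries. It was highest in the monocyte and macrophage share, at 0.0245%. Of the granulocyte markers, S100a8, S100a9, Camp, Ngp and Retnlg had their fewest reads there. The others, Ltf, Lcn2, Mpo, Elane, Prtn3, Ctsg, Cd177, Ly6g and Mmp8, had fewer reads in some other library. Markers were grouped in this way after their values were seen. The part of these sums in the library's mitochondrial share was not tested. Its depth, 17197765 reads, was within the range of the other libraries.

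**Figure D2:**
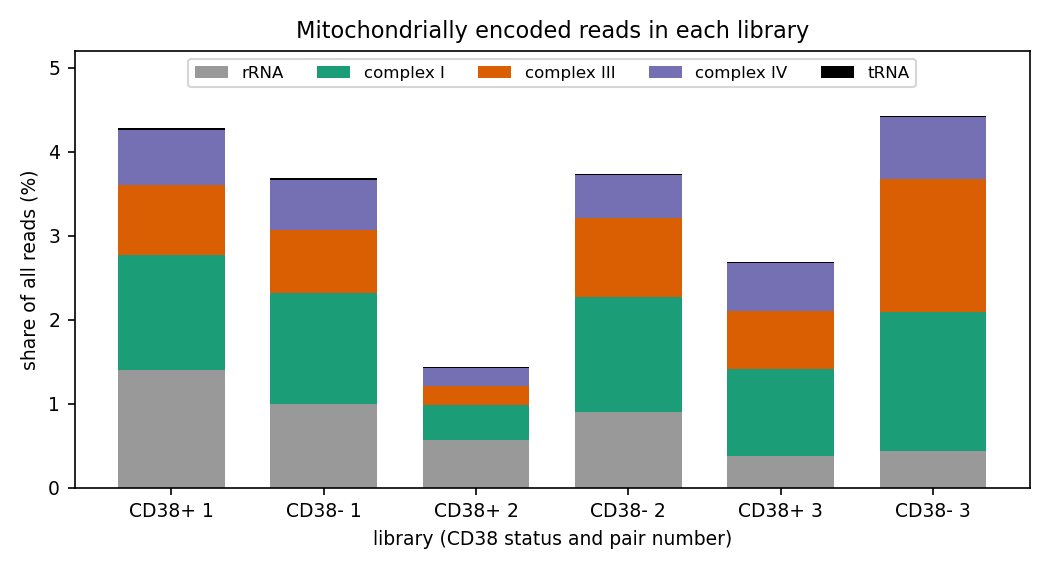
Share of all reads from mitochondrially encoded genes in each library, in percent, stacked by rRNA, the protein-coding genes of complexes I, III and IV, and tRNA, with the libraries of a pair side by side. Pair 1 is higher in its CD38-positive library (4.28% against 3.68%), pairs 2 and 3 are lower; complex V has too few reads to be seen.

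The 2 rRNAs are the RNA parts of the mitochondrial ribosome. For mt-Rnr2, the large-subunit rRNA, CD38-positive replicates 1, 2 and 3 held 234464, 84691 and 59327 reads and the CD38-negative ones 152145, 134571 and 66403. mt-Rnr1, the small-subunit rRNA, had 25901, 13064 and 5830 reads, and 18012, 16943 and 8773. Both were high in pair 1 and low in pair 3 whatever the population. As a share of all reads the rRNAs of CD38-positive libraries stood at 0.784% ± 0.544 (SD, n = 3), beside 0.780% ± 0.296 (SD, n = 3) for CD38-negative ones (mean log2 difference -0.13, exact permutation p = 0.75). The protein-coding genes stood at 2.005% ± 1.03 (SD, n = 3) and 3.15% ± 0.709 (SD, n = 3), with a mean log2 difference of -0.80 (exact permutation p = 0.5, adjusted 0.667). That difference was -1.25 without pair 1, -0.35 without pair 2, and -0.28 without CD38-positive replicate 2 alone and without the block.

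Set against each other, the rRNAs made a larger part in the CD38-positive library of every pair. The ratio of rRNA to protein-coding reads was 0.491, 0.659 and 0.166 in CD38-positive replicates 1, 2 and 3, and 0.372, 0.321 and 0.112 in their partners. The groups overlap, since pair 3 is low in both populations, but within each pair the CD38-positive library is higher. The mean log2 difference was 0.67 (SD 0.33, n = 3). Its exact permutation p was 0.25, the smallest that 3 pairs allow, so the test could not reach 0.05. This ratio was chosen after its parts had been seen, and the part of RNA capture in it was not tested. Without regard to pairs the exact permutation p was 0.5.

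The order of the rRNA share over the 6 libraries was also that of the erythroid marker share. From the top both ran CD38-positive replicate 1, CD38-negative 1, CD38-negative 2, CD38-positive 2, CD38-negative 3 and CD38-positive 3, with rRNA at 1.40%, 0.995%, 0.903%, 0.568%, 0.442% and 0.380% of reads. The erythroid markers, mostly the haemoglobin genes Hba-a1, Hba-a2, Hbb-bs and Hbb-bt, stood at 0.824%, 0.740%, 0.589%, 0.400%, 0.360% and 0.273%. This order was noticed after the values were seen, both shares have the library total below them, and the part of either in the other was not tested.

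Levels of single genes are compared per length, in CPM per kilobase averaged over the 6 libraries. mt-Cytb, the haem-carrying core of complex III, was the highest at 7379, followed by mt-Nd1, a complex I subunit at the foot of the membrane arm, at 5758 and mt-Rnr2 at 4493. mt-Co1, the catalytic subunit of complex IV, stood at 3597 and mt-Nd4, a proton-pumping subunit of complex I, at 2067. These levels divide by whole gene length, though part of both mt-Co1 and mt-Nd4 is repeated on chromosome 1. Divided by the length outside that repeat alone, mt-Co1 would stand at 5234 and mt-Nd4 at 5673, both above mt-Rnr2. Where within these genes the reads fell was not tested. By whole length, the order was not the same in every library. mt-Rnr2 stood above mt-Cytb in CD38-positive replicate 1 (8871 against 8025) and replicate 2 (3025 against 1962). In the latter mt-Nd1 did so too, at 1973.

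The lowest of the read protein-coding genes was mt-Nd2, also a pump of complex I, at 607, with mt-Nd6 at 1091 and mt-Nd5 at 1368. mt-Nd6 is the one protein-coding gene on the minus strand, so it comes from the other precursor. Whether the reads counted for mt-Nd6 come from that strand cannot be told without the strand setting. mt-Rnr1 stood at 900, well below mt-Rnr2, its partner in the ribosome. The part of RNA capture in such differences between genes was not tested. In total reads mt-Cytb led with 865110 over the 6 libraries, ahead of mt-Rnr2 with 731601, and one or other of these was the top mitochondrial gene in each library.

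Between populations, 0 of the 19 mitochondrial genes tested passed an adjusted p of 0.05 in edgeR's quasi-likelihood test with the pair as a block, against 0.0135% of all 14785 genes tested. The 19 are the 7 protein-coding genes, both rRNAs and 10 tRNAs that passed the filter on low counts, and each of the 18 others had at most 34 reads in all. All 19 had a negative fitted log2 fold change, against 49.9% of all genes. At an unadjusted p under 0.05, 9 were lower in CD38-positive libraries, against 2.61% of all genes, and 0 higher, against 2.47%. The genes share precursors and libraries, so the 19 are not independent observations. DESeq2 and limma-voom with the same block also called 0 of them, with 7 and 9 at an unadjusted p under 0.05.

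Of the alternatives run, the fit without the filter on low counts was the one that called any of them: mt-Cytb, mt-Nd1, mt-Nd2, mt-Nd4 and mt-Nd6, with adjusted p from 0.000164 to 0.0374 in edgeR's quasi-likelihood test. Their fold changes hardly moved (mt-Cytb at -1.02 in both fits), and 80 of 26504 genes were called in that fit. The adjusted p of the named mitochondrial genes over all alternatives ran from 0.000164 to 0.9999.

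mt-Cytb had the largest fitted difference of the protein-coding genes with all 3 pairs. It stood at 9181, 2245 and 6519 CPM in CD38-positive replicates 1, 2 and 3, and 7636, 8742 and 16330 CPM in their partners. CD38-negative replicate 3 was high and CD38-positive replicate 2 low, and the groups overlap through pair 1. The log2 fold change was -1.02 (SE 0.35, edgeR quasi-likelihood adjusted p = 0.925), with paired differences of 0.27, -1.96 and -1.33. Without pair 1 it was -1.64 and without pair 2 it was -0.54. Without pair 3 it was -0.85, behind mt-Nd6 at -0.95 and mt-Nd2 at -0.89.

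mt-Nd6 was the one protein-coding gene whose groups did not overlap. It stood at 597, 178 and 501 CPM in CD38-positive replicates 1, 2 and 3 and 648, 612 and 860 CPM in the CD38-negative ones, and all 3 pairs had the same sign, at -0.12, -1.78 and -0.78. The log2 fold change was -0.89 (SE 0.27, edgeR quasi-likelihood unadjusted p = 0.00562, adjusted p = 0.893). Of the 19 tested genes 2, mt-Nd6 and mt-Tm, did not overlap and were lower in CD38-positive libraries, against 3.17% of all genes, and 0 were higher without overlap, against 3.34%. Lower in all 3 pairs were 3 (mt-Nd6, mt-Tm and mt-Te), against 11.3%, and 0 were higher in all 3, against 13.2%.

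The other complex I genes had alike values. mt-Nd1 stood at 7169, 1888 and 4253 CPM in CD38-positive and 6331, 6068 and 7356 CPM in CD38-negative replicates 1, 2 and 3, a log2 fold change of -0.77 (SE 0.31). mt-Nd2 stood at 851, 186 and 407 CPM against 634, 857 and 844 CPM, a log2 fold change of -0.95 (SE 0.37). In both, CD38-positive replicate 2 was the low library and CD38-positive replicate 1 was among the highest.

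mt-Nd4 stood at 3349, 799 and 2544 CPM in CD38-positive and 2868, 2435 and 5093 CPM in CD38-negative replicates 1, 2 and 3, a log2 fold change of -0.80 (SE 0.30). mt-Nd5, another pump of the membrane arm, stood at 3228, 980 and 2003 CPM against 3010, 2772 and 2983 CPM, a log2 fold change of -0.66 (SE 0.28). The edgeR adjusted p was 0.925 for each of these 4 genes. mt-Nd5 was close in the 3 CD38-negative libraries, at 2922 ± 130 CPM (SD, n = 3), and spread widely among the CD38-positive ones, at 2070 ± 1125 CPM (SD, n = 3).

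mt-Co1 had the smallest fitted difference of the protein-coding genes. It stood at 7373, 2107 and 5452 CPM in CD38-positive and 6040, 4727 and 7649 CPM in CD38-negative replicates 1, 2 and 3. The groups overlap, with the low value again in CD38-positive replicate 2. Its log2 fold change was -0.46 (SE 0.27, edgeR quasi-likelihood adjusted p = 0.926), and it was -0.83 without pair 1 and -0.11 without pair 2. Over the 7 protein-coding genes the fold changes lay between -1.64 and -0.83 without pair 1 and between -0.54 and -0.11 without pair 2. For mt-Rnr2 and mt-Rnr1 it was -0.11 and -0.19, and each changed sign without the block and when 1 pair was left out.

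**Figure D3:**
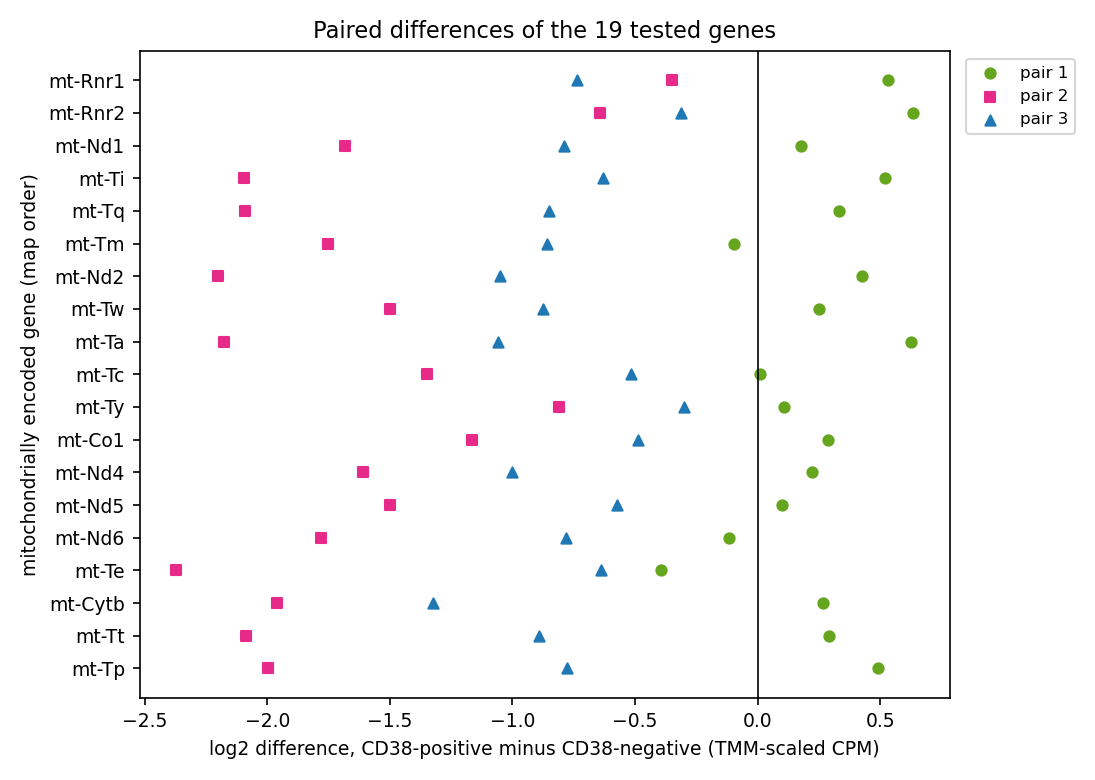
Log2 difference between the CD38-positive and the CD38-negative library of each pair for the 19 mitochondrial genes that passed the filter, in map order; circles are pair 1, squares pair 2 and triangles pair 3. In pairs 2 and 3 all 19 lie below 0, in pair 1 16 of 19 lie above it, and mt-Nd6, mt-Tm and mt-Te are below 0 in all 3.

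The 3 pairs did not share a direction. In pair 1, 6 of the 7 protein-coding genes were above 0, with a median of 0.22, while all 7 were below it in pairs 2 and 3, with medians of -1.68 and -0.79. The medians of all genes tested were 0.00, -0.02 and 0.03 in the same pairs. Within a pair the 7 genes spread over 0.54, 1.04 and 0.84 on the log2 scale. The gene at the top and the gene at the bottom changed from pair to pair, except that mt-Co1 was the highest of the 7 in both pair 2 (-1.17) and pair 3 (-0.49).

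Whether the respiratory complexes moved together was asked from the make-up of the mitochondrial protein-coding reads, which a common shift leaves as it is. Only complexes I, III and IV could be compared, IV through mt-Co1 alone, since complex V had 7 reads in all. Complex I genes made 47.9%, 48.1% and 44.8% of these reads in the CD38-positive libraries of pairs 1, 2 and 3 and 49.7%, 48.6% and 41.7% in their partners. Its part was level between populations, at 46.9% ± 1.85 (SD, n = 3) and 46.7% ± 4.34 (SD, n = 3), with a mean log2 difference of 0.01 (exact permutation p = 1).

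Complex IV had the larger part in CD38-positive libraries. mt-Co1 made 23.2%, 25.1% and 25.1% of the protein-coding reads in the CD38-positive libraries of pairs 1, 2 and 3, and 22.2%, 18.0% and 18.6% in the CD38-negative ones. All 3 CD38-positive libraries were above all 3 CD38-negative ones. The mean paired log2 difference was 0.33 (SD 0.23, n = 3), from 0.06 in pair 1 to 0.48 in pair 2, with an exact permutation p of 0.25 (adjusted over the 3 complexes 0.75). Without regard to pairs the exact permutation p was 0.1, the smallest that 3 against 3 libraries allow. Neither test can reach 0.05 in this design.

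Complex III went the other way in 2 of 3 pairs. The 3 complexes make up practically all of the protein-coding reads, so a larger part for any of them leaves less for the others. The differences of complexes III and IV are therefore not separate results. mt-Cytb made 28.9%, 26.8% and 30.1% of the protein-coding reads in the CD38-positive libraries of pairs 1, 2 and 3 and 28.1%, 33.3% and 39.7% in the CD38-negative ones. The groups overlap at pair 1, and CD38-negative replicate 3 is the highest. The mean log2 difference was -0.23 (SD 0.23, n = 3; exact permutation p = 0.5, adjusted 0.75). As shares of all reads, the log2 differences in pairs 1, 2 and 3 were 0.04, -1.72 and -0.69 for complex I, 0.14, -2.02 and -1.19 for complex III and 0.16, -1.23 and -0.35 for complex IV. The 3 complexes had the same sign within every pair and differed in size.

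**Figure D4:**
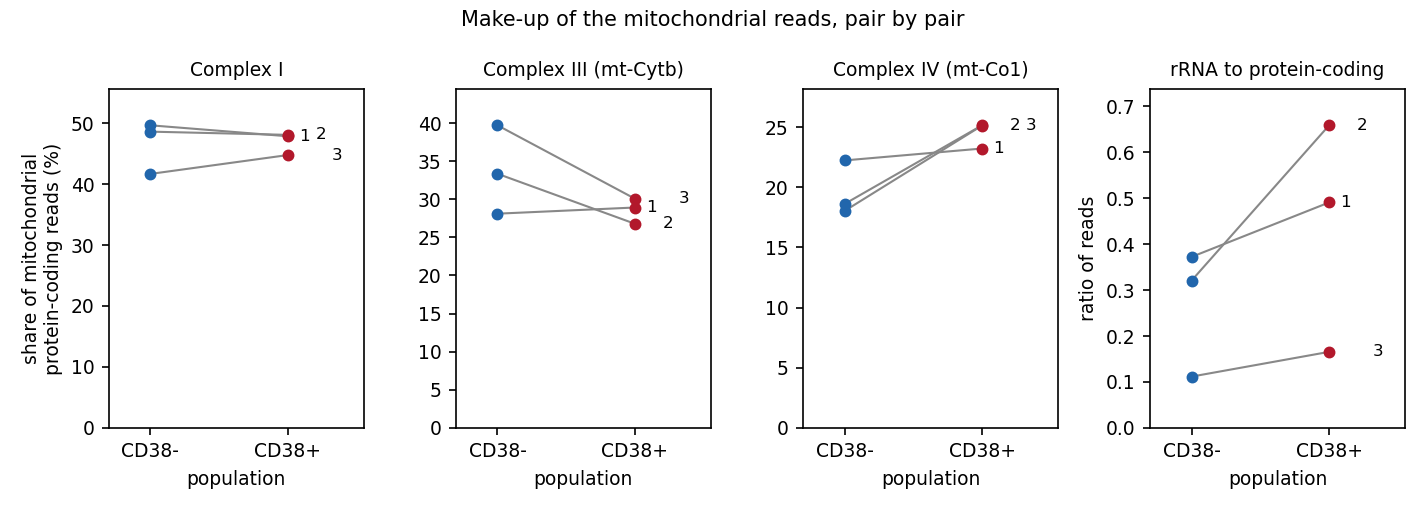
Part of the mitochondrial protein-coding reads from complex I, III and IV genes, in percent, and ratio of rRNA to protein-coding reads, in the CD38-negative (blue) and CD38-positive (red) library of each pair, joined by a line and numbered. The complex IV part is higher in CD38-positive libraries in 3 of 3 pairs, between 23.2% and 25.1% against 18.0% to 22.2%, and so is the rRNA ratio, whose groups overlap.

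The tRNAs of CD38-positive libraries took 0.0112% ± 0.00534 (SD, n = 3) of all reads, beside 0.0175% ± 0.00257 (SD, n = 3) for CD38-negative ones, with a mean log2 difference of -0.76 (exact permutation p = 0.5, adjusted 0.667), which was -1.21 without pair 1 and -0.21 without pair 2. Mature tRNAs are short and folded and are poorly captured by standard libraries, and reads of a tRNA cannot be told apart here from reads of its precursor. The genes annotated on the minus strand, 8 of the 22, had 13044 reads in all, and the 14 on the plus strand 1833. Of the minus-strand tRNAs 6 passed the filter, and of the plus-strand ones 4. The strand setting of the counting is not given. Whether reads that span a tRNA and its neighbour were assigned to either depends on the counting settings and was not tested.

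The leading tRNA was mt-Tq, for glutamine, at 62.4, 19.3 and 33.7 CPM in CD38-positive replicates 1, 2 and 3 and 49.5, 82.7 and 60.8 CPM in the CD38-negative ones. It was followed by mt-Ty for tyrosine, at 48.4, 16.1 and 33.3 against 44.8, 28.3 and 41.0 CPM, and mt-Tp for proline, at 28.8, 6.78 and 23.4 against 20.5, 27.4 and 40.1 CPM. In each of these the CD38-positive replicate 2 was lowest, and the groups overlapped. Their log2 fold changes were -0.86, -0.33 and -0.75.

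mt-Te, for glutamate, beside mt-Nd6 on the minus strand, stood at 8.20, 2.43 and 10.9 CPM in CD38-positive replicates 1, 2 and 3 and 10.8, 13.04 and 17.0 CPM in their partners, with a log2 fold change of -1.10 (SE 0.36, edgeR quasi-likelihood adjusted p = 0.925). mt-Tm, for methionine, the leading one on the plus strand, stood at 6.23, 2.37 and 4.02 against 6.66, 8.27 and 7.38 CPM, with a log2 fold change of -0.90 (SE 0.35). Its groups did not overlap, with the closest values in pair 1. The other 5 tRNAs tested had log2 fold changes between -0.87 and -0.70. Of the 12 not tested, 4 had 0 reads in every library.

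The nuclear genes that make, keep and process mitochondrial RNA were followed as a list of 54, of which 53 passed the filter. None passed an adjusted p of 0.05 in edgeR's quasi-likelihood test (smallest 0.926), and 0 had an unadjusted p under 0.05, where 5.08% of all genes did. Their median log2 fold change was -0.01, with 27 below 0 and 26 above, beside 0.00 for all genes. Their pair medians were -0.05, 0.09 and -0.07.

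Tfam, which packs mitochondrial DNA and starts its transcription, had a log2 fold change of 0.05 (SE 0.19), and Tfb2m, which opens the promoter with it, 0.10 (SE 0.25). Polrmt, the RNA polymerase of mitochondria, had 0.48 (SE 0.25), with paired differences of -0.12, 0.88 and 0.67. Of the 10 genes listed for transcription of mitochondrial DNA, 5 were below 0 and 5 above. Lrpprc, which steadies mitochondrial mRNAs, had 0.02 (SE 0.19), and Ppargc1a, a coactivator of mitochondrial genes in the nucleus, -0.04 (SE 0.43). The edgeR adjusted p of these 5 genes was between 0.926 and 0.993.

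The nuclear subunits of the respiratory complexes were set beside the mitochondrial ones. Of 76 listed, 75 were tested, 0 passed the adjusted threshold, against 0.0135% of all genes, and 52 had a negative fitted fold change, against 49.9% of all genes. Their median was -0.11, beside 0.00 for all genes. By complex the medians were -0.13 for the 36 nuclear genes of complex I, -0.11 for the 9 of complex III, -0.14 for the 11 of complex IV and -0.04 for the 15 of complex V, and -0.09 for the 4 of complex II, which has no mitochondrial gene. In pairs 1, 2 and 3 the nuclear subunits had medians of 0.12, -0.06 and -0.34, beside 0.22, -1.68 and -0.79 for the 7 mitochondrial genes. By complex, the nuclear medians in pair 2 were -0.16 for I, 0.01 for III, -0.27 for IV and 0.21 for V, so they did not share a sign there. The difference between the sets was not tested.

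**Figure D5:**
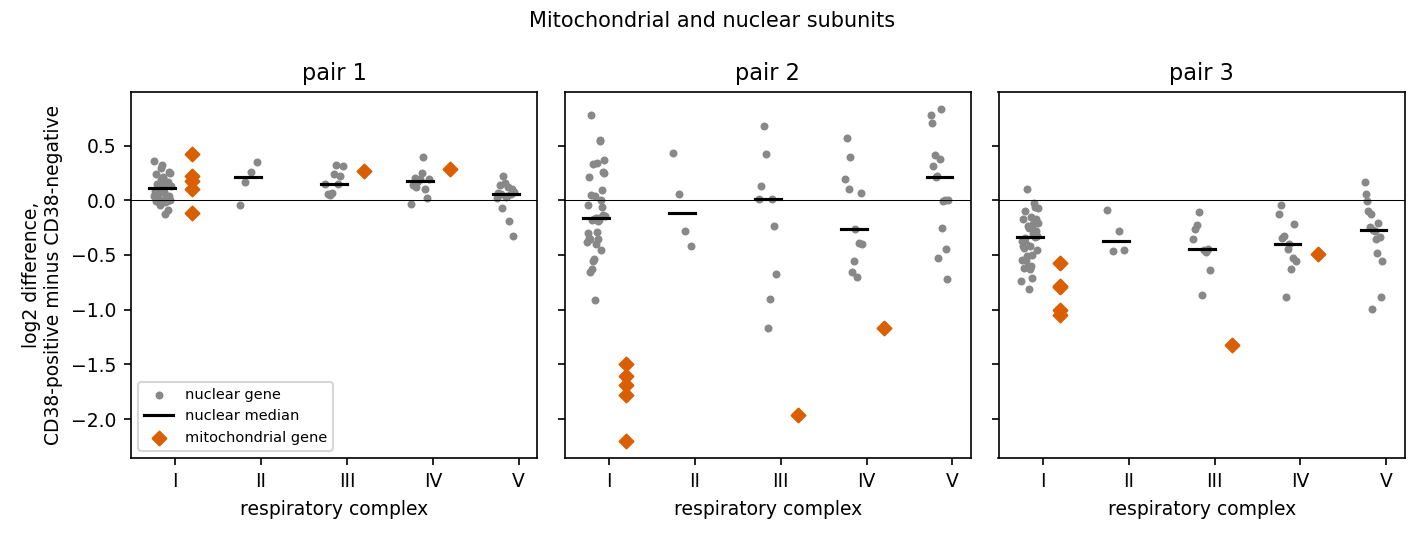
Log2 difference between the CD38-positive and CD38-negative library, pair by pair, for nuclear subunit genes (grey points, black bar at their median) and mitochondrial genes (orange diamonds) of each respiratory complex; complex II has no mitochondrial gene and those of complex V had too few reads. In pairs 2 and 3 every mitochondrial gene shown lies below the nuclear median of its complex; in pair 1 all but 1, mt-Nd6, lie above 0.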

How the data were processed

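The values are raw counts of reads, which the authors deposited by Ensembl identifier, 1 file for each of the 6 libraries. Cutadapt, STAR, HTSeq 0.6.1p1 and the builds GRCm38 and mm10 are named, without roles, per the submitters' processing notes. The read length, strand setting and annotation release are not given in the sources used here. A table of symbols matched 49326 of 49585 identifiers. Coordinates and transcripts came from GENCODE M21 (GRCm38).

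Genes were kept with filterByExpr, scaled by TMM and tested in edgeR 4.0.16 (R 4.3.3) by the quasi-likelihood test with pair plus population, with Benjamini-Hochberg adjustment over all genes tested. Shares were compared by exact permutation of the paired log2 ratios. The pairs come from the design text. Within pairs 1, 2 and 3, gene-wise deviations from the mean of the population correlated at 0.34, 0.12 and 0.24. No library repeated another of its population (chi-square over degrees of freedom of at least 52.7). Paired differences used log2 CPM with a prior count of 2. Mitochondrial sequence was rebuilt from its transcripts and compared with all nuclear transcripts in BLAST 2.17.0 (identity of at least 90% over at least 100 bases). The fit was tested on simulated data with known changes.

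The named genes were all protein-coding and rRNA members, the 5 leading tRNAs, 5 nuclear genes of mitochondrial transcription and the nuclear copies with the most reads. The members and lists were chosen with earlier results of these data known.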

Additional observations from a re-analysis of the deposited data

How the results depend on the processing

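The alternatives were no replicate block, DESeq2 1.42.0, limma-voom (limma 3.58.1), 3 other scalings, 2 other filters, a threshold of 0.1 and leaving out each pair. The count of mitochondrial genes called was 0 under each of these except without a filter on low counts, where it was 5 (3 of complex I besides mt-Nd6, and mt-Cytb); it was 0 without each pair. The count of all genes called was 2 in the reported fit, 0 without the replicate block and with unscaled library totals, 11 with DESeq2, 7 with DESeq2 size factors, 80 without a filter, 13 with a mean of at least 10 counts and 7 at a threshold of 0.1. Leaving out a pair gave 2 to 41 genes. The cause was not tested.

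Of 83 alternative values of the shares and the ratio, 79 kept their sign. Their exact p cannot fall below 0.25 with pairs or 0.1 without, so none could pass 0.05 under any alternative. The rRNA share changed sign to 0.0035 in percentage points and lay between -0.44 and 0.14 in log2 with each pair left out in turn. The complex I part of the protein-coding reads, 0.01 in log2, was -0.0228 when genes were weighted equally and lay between -0.0345 and 0.0438 with each pair left out. Without the block, mt-Rnr1 and mt-Rnr2 changed sign to 0.0349 and 0.10, and with each pair left out they lay between -0.54 and 0.0911 and between -0.48 and 0.15. Of 168 alternative values for the 14 named members, 159 stayed on their side, 5 passed the threshold and 4 changed sign. Over the pairs left out, the share of all mitochondrial genes ran from -1.05 to -0.25 in log2. The alternatives planned for complex V gave no value, since its genes had 7 reads in all. A count of 0 in a library allows up to 3 reads by counting error alone.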
